A study of Mus musculus with 8 samples.

Results

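The heat shock proteins and their DnaJ partners, the molecular chaperones that fold, refold and sort other proteins, were compared between the limbus and the cornea of the mouse. Every gene whose symbol begins with Hsp or Dnaj was taken, apart from Hspg2, the basement membrane proteoglycan perlecan, which only shares the letters. The rule found 74 of the 23420 named genes in the table, 29 of them named Hsp and 45 named Dnaj. Both tissues came from wild type C57BL/6J mice at 8 weeks of age, with no treatment named, and 16 eyeballs were dissected. The limbal rim is the ring between the cornea and the sclera, where the stem cells of the corneal epithelium reside, and the button is the cornea that it encloses. Rims and buttons were each pooled across animals before RNA extraction, and the values of the deposited table can be written as whole reads of 1 total RNA library per tissue. The labels number 4 samples in each tissue as L001 to L004, and whether these are sequencing lanes of 1 pool is not given in the sources used here.

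Heat shock protein 70 (HSP70) chaperones bind exposed hydrophobic stretches of unfolded proteins in a cycle driven by ATP. DnaJ proteins, also called HSP40, bring substrates to HSP70 and start ATP hydrolysis through their J domain, while HSP90 acts later on receptors and kinases. Small heat shock proteins hold unfolded proteins in a soluble state without ATP, and several of them are characteristic of muscle. Under heat or other protein damage, heat shock factor 1 binds repeated GAA and TTC units upstream of many of these genes, and unfolded protein in the endoplasmic reticulum (ER) raises a separate group of chaperones through another element.

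Named genes took 26104317 reads in the library of the cornea and 21182025 in that of the limbus. Reads were divided by the size factor of their library, which gives normalized reads, and ratios are log2 of limbus over cornea with an exact 95% confidence interval (CI), so that negative values are higher in the cornea. Where read numbers are given as a pair, the cornea comes first. The intervals cover counting error only, since reads amplified by PCR without molecular identifiers do not each stand for a molecule. As each tissue is 1 library, there is no replicate check and no test across samples, and the differences below are between these 2 libraries. A gene is called higher in a tissue when its mean is at least 10 normalized reads, its ratio is at least 1.5-fold and its interval lies beyond a ratio of 1. The dissection was visible in the data, with the corneal keratin Krt12 at 1137735 corneal and 233324 limbal reads, and the limbal keratin Krt15 at 37738 and 353826. Genes of other tissues also differed, and all 10 skeletal muscle genes examined were called higher in the limbal rim (53 reads summed in the cornea, 10126 in the limbus), as were 5 of 5 vascular endothelial genes (198 and 2080 reads) and 5 of 5 photoreceptor genes (576 and 5250 reads). In pooled tissue, fewer cells of a type and less RNA per cell cannot be told apart.

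Most of the chaperone genes differed little between the tissues, with more of them slightly higher in the cornea and a few far higher in the limbus. Of the 74 genes, 65 had a mean of at least 10 normalized reads, 6 had fewer and 3 were listed at 0. Among the 65, normalized reads were more numerous in the limbus for 18 and in the cornea for 47. Among all 13932 genes with such a mean, they were so for 6660 and 7270. The median log2 ratio of the 65 was -0.31, against -0.04 over these 13932 genes. In the limbus, 8 of the 65 (12.3%) were called higher, where 22.8% of all genes were. In the cornea, 13 (20%) were called higher, close to the 20.6% of all genes. Called in neither tissue were 44 of the 65, and 7893 of all 13932 genes. The whole interval lay within 1.5-fold in either direction for 34 of the 65, and it included a ratio of 1 for 14. These interval counts depend on read depth and were not computed for all genes. The log2 ratio reached 6.83 in the limbus and 1.34 in the other direction, while 3 of the 8 genes called in the limbus (Dnajb5, Dnajb3 and Hspb6) had ratios between 0.95 and 1.11. All chaperone reads together made up 0.662% of the reads on named genes in the cornea and 0.622% of those in the limbus.

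Scaling affects all of these ratios by the same amount. Scaling to total reads raised every log2 ratio by 0.21, which left 9 genes called for the limbus and 6 for the cornea (28.1% and 13.5% of all genes). The 6 were Hspa13, Hspa4, Hspb11, Dnaja4, Dnajb9 and Dnajc6, and the other genes called higher in the cornea below lost their call. Under that scaling the median of the chaperones was -0.10 and that of all genes 0.17. A trimmed mean of M-values raised the ratios by 0.02 and gave 8 and 12 calls. These were 12.3% and 18.5% of the chaperones, against 23.2% and 19.8% of all genes. In all 3 scalings, 40 genes kept more normalized reads on the cornea side and 18 on the limbus side, while the sign of the other 7 turned under total reads. Exons of 3 of the 8 genes called in the limbus (Hspb2, Hspb6 and Hspa12a) and of 5 of the 13 in the cornea (Dnaja4, Dnajb6, Dnajb9, Dnajc13 and Hspbap1) overlap an exon of another gene, by 14 bases in Dnajb9 and up to 1581 in Dnaja4.

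**Figure D1:**
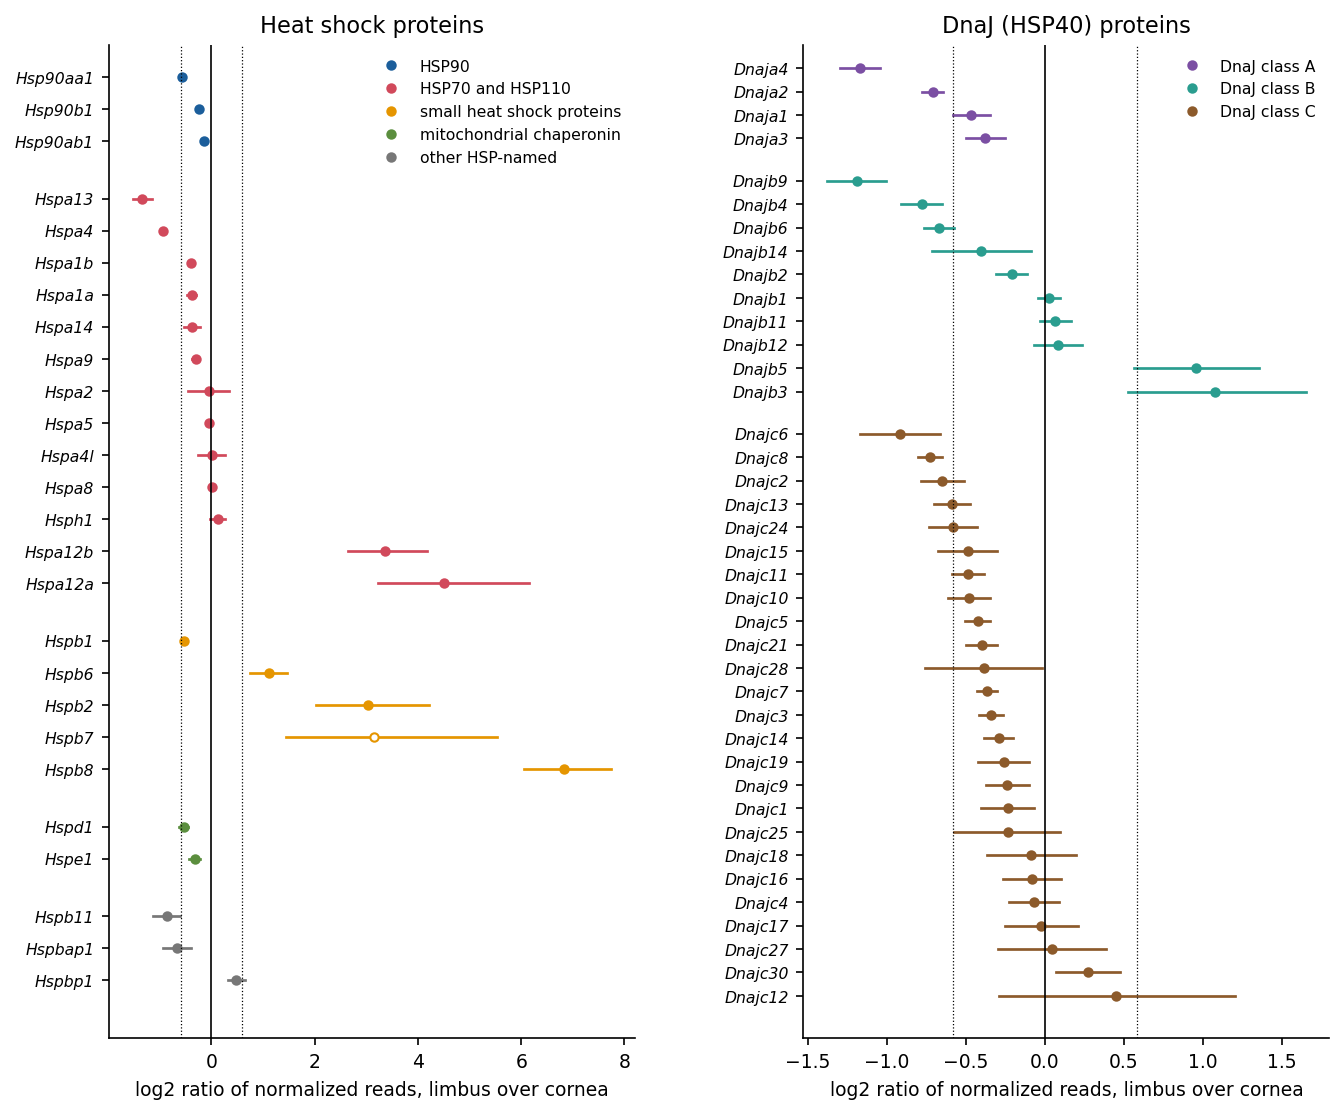
Log2 ratio of normalized reads, limbus over cornea, of the 65 chaperones that reached a mean of 10, with exact 95% confidence intervals as bars and dotted lines at 1.5-fold; the horizontal axes of the panels differ. The open circle is Hspb7, which had 0 reads in the cornea and is drawn against 3 reads. Hspb8 stands farthest to the right at 6.83, and most DnaJ genes lie left of 0.

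**Figure D2:**
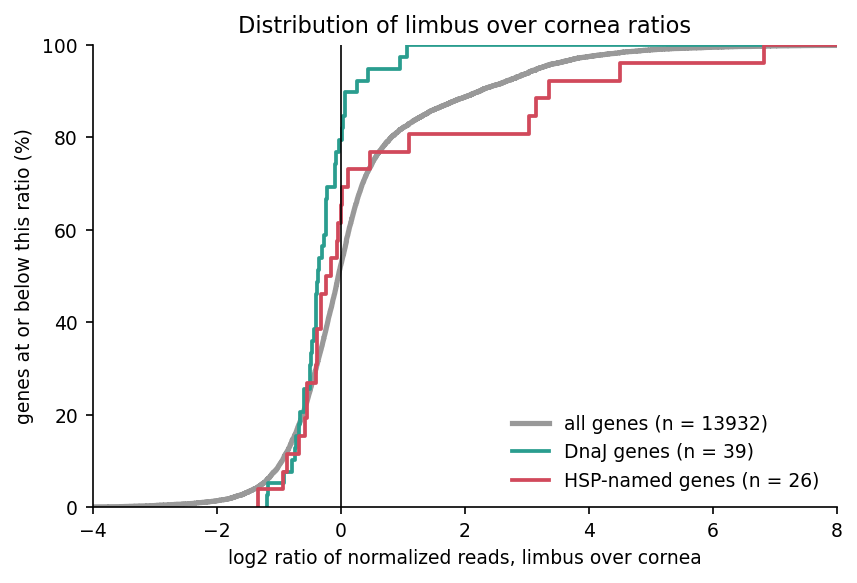
Cumulative share of genes by log2 ratio of normalized reads, limbus over cornea, for all 13932 genes with a mean of at least 10 (grey), the 39 DnaJ genes (green) and the 26 genes named Hsp (red). The DnaJ curve lies left of the grey one over most of its range, and the red curve has a tail of 5 genes above a log2 ratio of 3.

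Small heat shock proteins gave the widest range. Of 7 listed genes, 5 had a mean of at least 10 normalized reads, 4 of these were called higher in the limbus and none in the cornea. Hspb8, which works with the cochaperone Bag3 to clear damaged proteins in muscle and other tissues, had 13 corneal and 1382 limbal reads, a log2 ratio of 6.83 (95% CI 6.05 to 7.74). This was the largest ratio among the chaperones. Hspb2, first known as a binding protein of the myotonic dystrophy kinase, had 9 corneal and 69 limbal reads (log2 ratio 3.03, CI 2.03 to 4.22). Hspb6, also called HSP20, is abundant in smooth and striated muscle and had 99 and 200 reads (1.11, CI 0.76 to 1.47). Hspb7, a heart and muscle protein, had 0 corneal and 25 limbal reads, at least 2.72-fold higher in the limbus when the cornea is set to 3 reads.

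The last member of that group, Hspb1 (HSP27), behaved differently. It protects actin filaments and is abundant in stratified epithelia, and it had 14701 corneal and 9500 limbal reads, a log2 ratio of -0.53 (CI -0.57 to -0.50). The ratio is on the cornea side and short of 1.5-fold. Within the cornea library, Hspb8 had 0.000884 times the reads of Hspb1, and within the limbus library 0.146 times, a comparison that no scaling between the libraries can move. Hspb2 and Hspb7, like the HSP70 relative Hspa12a, reached the minimum mean only through their limbal reads. Hspb3, another muscle protein, had 0 corneal and 2 limbal reads, and Hspb9, a testis protein, was listed at 0.

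Muscle genes differed in the same direction as the 4 small heat shock genes called. All 10 skeletal muscle genes examined were called higher in the limbus, with a median log2 ratio of 7.02 and a range from 4.29 to 8.71. Of the smooth muscle and pericyte genes, 6 of the 6 with a mean of at least 10 were called higher in the limbus (140 corneal and 2575 limbal reads over all 8 listed genes). Desmin (Des), the intermediate filament of muscle, had 0 corneal and 305 limbal reads, and Ckm, the muscle creatine kinase, 5 and 1653. Unc45b, the HSP90 cochaperone that folds myosin in striated muscle, had 0 corneal and 80 limbal reads. The part of muscle RNA in the ratios of Hspb2, Hspb6, Hspb7 and Hspb8 was not tested. The alpha crystallins, close relatives of the small heat shock proteins, were both called higher in the limbus as well. Cryaa, mainly a lens protein, had 468 corneal and 5423 limbal reads (3.63, CI 3.49 to 3.77). Cryab, found in lens and muscle, had 2518 and 4703 (0.997, CI 0.927 to 1.07). Hspb2 lies head to head with Cryab on chromosome 9 (50751078 to 50752354), and 252 of its 834 exon bases overlap a Cryab transcript on the opposite strand, so that without knowing whether counting used strand their reads cannot be told apart there. Hspb8 on chromosome 5 (116408491 to 116422864) and Hspb7 on chromosome 4 (141420779 to 141425311) overlap no exon of another gene in the GENCODE annotation of GRCm38.

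The HSP70 and HSP110 group had 14 listed genes, of which 13 had a mean of at least 10 normalized reads. Of the 13, each tissue had 2 called higher, and the median log2 ratio was -0.05. The calls in the limbus were Hspa12a and Hspa12b, distant members of the family with an atypical ATPase domain. Hspa12a, best known from brain, had 5 corneal and 106 limbal reads (4.50, CI 3.23 to 6.15). Hspa12b, which is expressed mainly in endothelial cells, had 17 corneal and 164 limbal reads (3.37, CI 2.64 to 4.18). Endothelial genes differed in the same direction, with a median log2 ratio of 5.99 over 5 genes. Pecam1 had 6 corneal and 831 limbal reads, and Kdr, with the smallest ratio of the 5 (0.81), had 170 and 278. The Schwann cell and neuron genes also differed in that direction. Of these, 4 of the 4 with a mean of at least 10 were called higher in the limbus (76 and 1291 reads over all 5 listed genes). The part of these cells in the ratios of Hspa12a and Hspa12b was not tested.

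Hspa13 and Hspa4 were the members of this group called higher in the cornea. Hspa13, also named Stch, is a truncated HSP70 relative of the microsomes and had 889 corneal and 329 limbal reads (-1.34, CI -1.53 to -1.15). This was the lowest ratio of all the chaperones, and the gene was still 1.5-fold or more higher in the cornea under total reads (-1.13). Hspa4 (Apg-2), an HSP110 protein that exchanges the nucleotide of HSP70, had 6629 corneal and 3249 limbal reads (-0.93, CI -0.99 to -0.87). Its relatives differed less. Hsph1 (HSP105) had 741 and 755 reads (0.12, CI -0.03 to 0.27), and Hspa4l (Apg-1) had 251 and 235 (0.00, CI -0.26 to 0.26). Within each library, Hspa4 had 0.633 times the reads of Hspa8 in the cornea and 0.327 times in the limbus.

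The constitutive HSP70 proteins of the cytosol and the ER were close to equal, and that of mitochondria was slightly higher in the cornea. Hspa8, the constitutive HSC70 of the cytosol, had 10479 corneal and 9933 limbal reads (0.02, CI -0.02 to 0.06). Hspa5 (BiP), the HSP70 of the ER, had 11590 and 10494 reads (-0.05, CI -0.09 to -0.01), a sign that turned under total reads (0.16). Hspa9 (mortalin), the HSP70 of mitochondria, had 4643 and 3506 reads (-0.31, CI -0.37 to -0.25). None of these 3 reached 1.5-fold. Hspa14, which works at the ribosome, had 836 and 601 reads (-0.38, CI -0.53 to -0.23). Hspa2, best known from testis, had 112 and 101 (-0.05, CI -0.46 to 0.35, and 0.15 under total reads).

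The stress-inducible pair Hspa1a and Hspa1b encode near-identical proteins from neighbouring genes on chromosome 17, and how reads were shared between them is uncertain. Hspa1a had 2196 corneal and 1572 limbal reads (-0.39, CI -0.48 to -0.29), and Hspa1b had 7540 and 5381 (-0.39, CI -0.44 to -0.34). Summed, the pair had 9736 and 6953 reads, a log2 ratio of -0.39 (CI -0.43 to -0.35). Hspa1a took 22.6% of the pair's reads in both libraries. The third gene of that cluster, Hspa1l, had 3 corneal and 10 limbal reads (1.83, CI -0.12 to 4.33).

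The 3 HSP90 genes were among the most abundant chaperones and none was called. Hsp90ab1, the constitutive cytosolic form, had 31509 corneal and 26526 limbal reads (-0.15, CI -0.18 to -0.13), and its sign turned under total reads (0.05). Hsp90b1 (GRP94), the form of the ER, had 13452 and 10709 reads (-0.23, CI -0.27 to -0.20). Hsp90aa1, the stress-inducible cytosolic form, had 6114 and 3864 (-0.57, CI -0.62 to -0.51), a fold of 1.48 towards the cornea. All 3 had more normalized reads in the cornea with the size factors, and Hsp90aa1 had 0.194 times the reads of Hsp90ab1 in the cornea and 0.146 times in the limbus.

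Normalized reads were also divided by the summed length of all annotated exons of a gene. This length need not be that of the transcripts present, so comparisons between different genes are rough. Per kilobase of exon, Hspb1 had the highest level of the chaperones, with 13794 normalized reads per kilobase in the cornea and 9525 in the limbus. It ranked 63rd of 13074 genes in the cornea and 111th in the limbus. Hsp90ab1 followed with 10164 and 9143 normalized reads per kilobase. Hsp90b1 came next at 3227 and 2746, ahead of Hspa5 at 2651 and 2565 and of Hspa8 at 2357 and 2387. Hspa1b, at 2602 and 1985, lay above Hspa8 in the cornea and below it in the limbus. Levels of Hspb8 were 6.45 in the cornea and 732.6 in the limbus, ranks 11294 and 1330. The limbal level of Hspb8 was thus near that of the abundant DnaJ gene Dnajc7 (706.4).

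**Figure D3:**
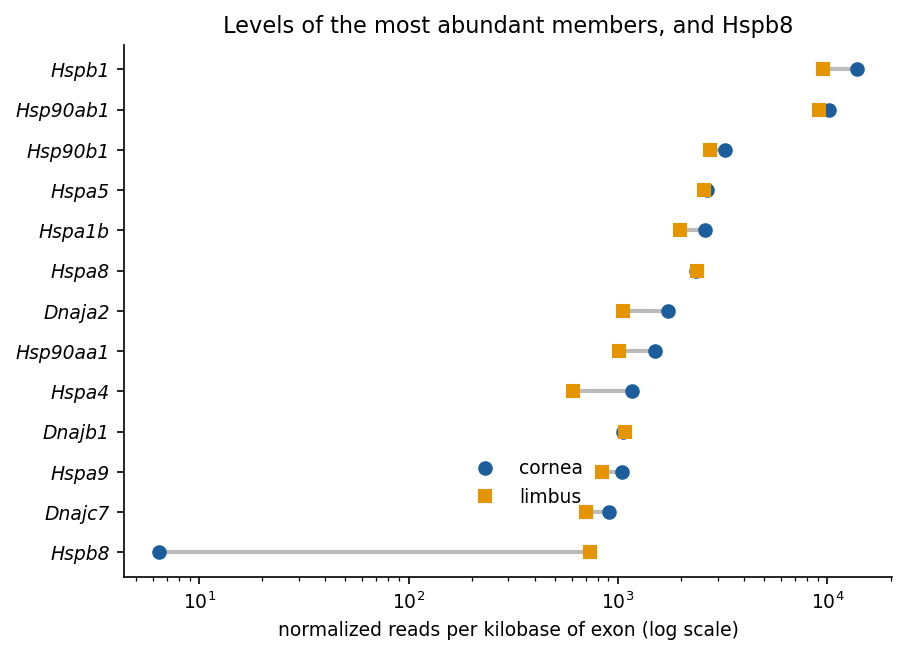
Normalized reads per kilobase of exon, on a log axis, of the 12 chaperone genes with the highest mean and of Hspb8, in the cornea (blue circles) and the limbus (orange squares). Hspb1 and Hsp90ab1 are the highest in both tissues, and Hspb8 spans 6.45 to 732.6.

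**Figure D4:**
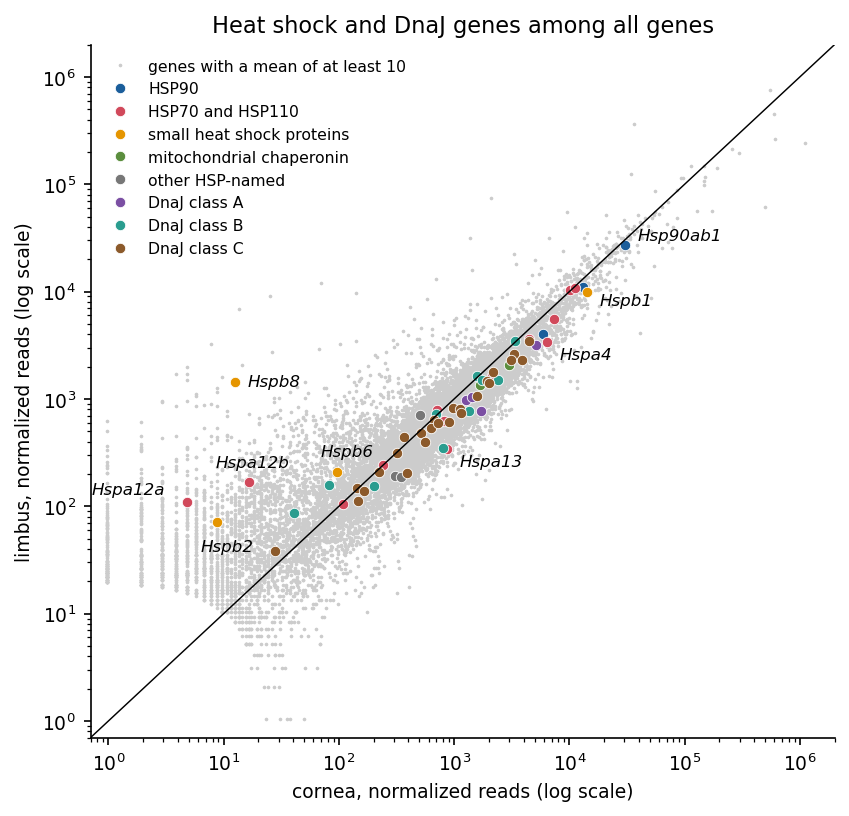
Normalized reads in the limbus against the cornea, on log axes, for genes with a mean of at least 10 and reads in both libraries (grey) and for the chaperones (coloured by group), with a line of equality. Most chaperones lie on or just below the line, and Hspb8, Hspa12a, Hspa12b and Hspb2 lie well above it; Hspb7, with 0 reads in the cornea, is not drawn.

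In mitochondria, Hspd1 (HSP60) and its lid Hspe1 (HSP10) form the folding chamber. Hspd1 had 3109 corneal and 2003 limbal reads (-0.54, CI -0.62 to -0.46), and Hspe1 had 1723 and 1291 (-0.32, CI -0.43 to -0.22). Their exons overlap by 112 bases on opposite strands. Counting the 9 mitochondrial chaperones together, including Hspa9 and the DnaJ proteins Dnaja3, Dnajc11, Dnajc15, Dnajc19, Dnajc28 and Dnajc30, 8 had more normalized reads in the cornea in each scaling, and none was called. Their median log2 ratio was -0.38. The exception in direction was Dnajc30, with 381 and 430 reads (0.27, CI 0.07 to 0.47).

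The 3 remaining genes with Hsp names are not chaperones themselves, although the rule by symbol counts them in all totals above. Hspbp1, a nucleotide exchange factor that releases HSP70 from its substrate, had 525 corneal and 685 limbal reads (0.48, CI 0.31 to 0.65), a fold of 1.39. Hspbap1, which binds Hspb1, was called higher in the cornea at 316 and 186 reads (-0.67, CI -0.94 to -0.40). Hspb11, which despite its name is the intraflagellar transport protein IFT25, was also called higher in the cornea, with 357 and 183 reads (-0.87, CI -1.13 to -0.61).

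The DnaJ proteins had more normalized reads in the cornea for most genes, and few were called higher in the limbus. Of 45 listed genes, 39 had a mean of at least 10 normalized reads, 31 of these had more in the cornea, 9 were called higher in the cornea (23.1%, near the 20.6% of all genes) and 2 in the limbus (5.13%, against 22.8%). Of the 9, only Dnaja4, Dnajb9 and Dnajc6 were still called under total reads. The DnaJ median was -0.37 on the log2 scale, against -0.19 for the 26 genes named Hsp, and -0.16 against 0.01 under total reads. Class A proteins, the closest relatives of bacterial DnaJ, all had more normalized reads in the cornea in each scaling. Of the 4, 2 were called there (50%, against 20.6% of all genes). Dnaja2 had 5342 corneal and 3052 limbal reads (-0.71, CI -0.78 to -0.65). Dnaja4 had 1782 and 741 (-1.17, CI -1.30 to -1.05), but 1581 of its 3589 exon bases overlap Wdr61 on the opposite strand. Dnaja1 and the mitochondrial Dnaja3 were at -0.47 and -0.38.

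Class B, which shares the J domain and the glycine-rich stretch of class A but lacks the zinc finger, was mixed, and of its 10 genes the limbus had 2 called higher and the cornea 3. Dnajb9 (ERdj4), an ER protein that holds back the stress sensor IRE1, had 820 corneal and 336 limbal reads (-1.19, CI -1.38 to -1.01). Dnajb4, a heart and liver HSP40, had 1379 and 751 (-0.78, CI -0.91 to -0.65). Dnajb6, which holds aggregation-prone proteins and binds keratins, had 2489 and 1463 (-0.67, CI -0.77 to -0.58). These 3 were the class B genes called higher in the cornea. Dnajb1, the canonical stress-inducible HSP40, had 3509 and 3340 reads (0.02, CI -0.04 to 0.09). Dnajb5, a relative of Dnajb1, had 85 corneal and 154 limbal reads (0.95, CI 0.56 to 1.35), the lowest fold of the genes called higher in the limbus at 1.94. Dnajb3 had 42 and 83 (1.08, CI 0.53 to 1.65), and it is a gene of 1051 exon bases on chromosome 1 (88204732 to 88205782) that lies within the span of 9 other genes, 8 of them of the Ugt1a cluster on the opposite strand.

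Class C, whose members share little beyond the J domain, had 25 genes with a mean of at least 10. In the cornea 4 of them were called higher (16%, near the 20.6% of all genes), and in the limbus none (against 22.8%). Dnajc6 (auxilin), which strips clathrin from vesicles, had 399 corneal and 198 limbal reads (-0.92, CI -1.17 to -0.67). Dnajc8, a protein of splicing complexes, had 3988 and 2252 (-0.73, CI -0.80 to -0.65). Dnajc2 (MPP11), which works at the ribosome, had 1189 and 709 (-0.65, CI -0.79 to -0.51). The endosomal protein Dnajc13 (RME-8) had 1648 and 1025 (-0.59, CI -0.70 to -0.48), and at 1.505-fold it lay just inside the limit, while Dnajc24, with 937 and 585 reads and 1.499-fold, lay just outside. Dnajc7, which binds both HSP70 and HSP90 and had the most reads of the class, was at 4578 and 3323 (-0.37, CI -0.43 to -0.30). The other genes of the class ranged up to 0.45, the ratio of Dnajc12, whose 29 and 37 reads gave an interval from -0.29 to 1.20.

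Expression at the low end could not be compared. Dnajb13 had 0 corneal and 2 limbal reads, Dnajb7 and Dnajc22 had 0 and 1, and Dnajc5b had 6 in both. Dnajb8 and Dnajc5g were listed at 0. A count of 0 allows up to 3 reads, so only differences well above that could have been seen in these genes.

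Genes listed as responding to heat were examined as a group of 10, with Hspa8, described above as constitutive, among them. The 10 were Hspa1a, Hspa1b, Hspa8, Hspb1, Hsph1, Hsp90aa1, Hspd1, Hspe1, Dnaja1 and Dnajb1. None was called in either tissue, 7 had more normalized reads in the cornea in each scaling and 3 in the limbus, and their median log2 ratio was -0.39 (-0.18 under total reads). The range was -0.57 to 0.12. Immediate early genes, which can be induced during dissection, differed in another way. In the limbus 4 of 8 were called higher (50%, against 22.8% of all genes), and in the cornea none (against 20.6%). Atf3 had 24 corneal and 183 limbal reads (3.03, CI 2.41 to 3.71), Egr1 had 800 and 2141 (1.52, CI 1.40 to 1.63), and Fos had 1991 and 1502 (-0.31, CI -0.41 to -0.21). The part of dissection in either group was not tested. Of the heat shock factors, the transcription factors that drive these genes, Hsf1 had 578 and 703 reads (0.38, CI 0.22 to 0.54), Hsf2 had 56 and 69 (0.40, CI -0.13 to 0.93), and Hsf4, the lens factor, was called higher in the limbus at 13 and 43 reads (1.82, CI 0.90 to 2.84).

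Heat shock elements were looked for in RefSeq promoter windows of GRCm38.p6, which run from 250 bases before to 50 after a start site and matched 60 of the 74 genes in 77 windows. A run of 3 units, GAANNTTCNNGAA on either strand, was in 0.603% of all 32851 windows and in those of Hspd1, Hspe1, Hsph1 and Dnajb6 among the chaperones. Of these, Dnajb6 was called higher in the cornea, Hspd1 and Hspe1 had more normalized reads there without a call, and Hsph1 was on the limbus side at 0.12 with an interval that included 0. The matches that lie before a RefSeq start site are shown. That of Dnajb6 lies after the GENCODE start of its gene (29735688). Bases of the match are in capitals, 5′ to 3′ in the direction of the gene.
Hspd1 (chr1:55088054-55088081, minus strand): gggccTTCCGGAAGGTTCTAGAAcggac
Hspe1 (chr1:55088054-55088081, plus strand): gtccgTTCTAGAACCTTCCGGAAggccc
Dnajb6 (chr5:29735847-29735869, plus strand): tccgaGAATCTTCCGGAAcgcta
Hspd1 and Hspe1 are transcribed away from each other, and their match is the same stretch read from both sides, with 2 overlapping matches in 18 bases. It ends 126 bases before the RefSeq start of Hspd1 and 71 before that of Hspe1. In GENCODE, from which the exon overlap above was taken, Hspd1 starts farther out, at 55088243. The stretch lies within the span of Hspd1 there. The match in Hsph1 lies after its start site, in transcribed sequence, and is not printed.

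A shorter run of 2 units, GAANNTTC, was in 7.86% of all windows and in 16 of the 77 windows of the chaperones (20.8%), where it includes the 3-unit matches. Those of the stress-inducible genes Hspa1a, Hspa1b and Hspb1, and of Hspb6, a small heat shock protein called higher in the limbus, are printed with the match in capitals. That of Hspb6 lies before a RefSeq start but after the GENCODE start of its gene (30552178). Hspb8, which had the highest ratio, also held a match, but after its start site, and it is not printed.
Hspa1a (chr17:34972248-34972265, minus strand): tgctgGAAGATTCctggc
Hspa1b (chr17:34959330-34959347, minus strand): tgctgGAAGATTCctggc
Hspb1 (chr5:135887797-135887814, plus strand): caagaGAAGTTTCcagat
Hspb6 (chr7:30553176-30553193, plus strand): ttattGAAGTTTCtaaat
Hspb1 held 2 such matches, of which the one farther from the start is shown. The windows of Hspa1a and Hspa1b were identical at 296 of 300 bases. A match describes these letters in this window and not a site in use, and genes with a match were found on either side of a ratio of 1.

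Few of the ER chaperones were called. Of 10 genes, 8 had more normalized reads in the cornea (7 under total reads), 2 were called higher there, Hspa13 and Dnajb9 (20%, near the 20.6% of all genes), and none in the limbus, with a median log2 ratio of -0.29 (-0.08 under total reads). Dnajc3 (p58IPK), which restrains the stress kinase PERK, had 3419 corneal and 2527 limbal reads (-0.34, CI -0.42 to -0.27). Dnajb11 (ERdj3), a cofactor of BiP, had 1622 and 1589 (0.07, CI -0.03 to 0.17). Within each library, Dnajb9 had 0.0708 times the reads of Hspa5 in the cornea and 0.032 times in the limbus. The ER stress element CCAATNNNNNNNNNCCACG, sought on both strands, was in 0.119% of all windows and in 3 windows of the chaperones, those of the classical ER stress targets Hspa5, Hsp90b1 and Dnajc3, and these are shown since none of the 3 genes was called.
Hspa5 (chr2:34772020-34772048, plus strand): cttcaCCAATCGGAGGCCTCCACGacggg
Hsp90b1 (chr10:86705633-86705661, minus strand): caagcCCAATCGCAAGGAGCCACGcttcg
Dnajc3 (chr14:118937822-118937850, plus strand): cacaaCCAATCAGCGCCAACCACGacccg
Hsp90b1 held 2 matches, of which the one farther from the start is printed. The match of Hspa5 lies before a RefSeq start but after the GENCODE start of its gene (34771970). Among 20 other ER folding and stress genes, 1 was called in each direction. The stress factor Ddit3 (CHOP) was higher in the limbus at 172 and 284 reads (0.82, CI 0.54 to 1.10), and the lectin chaperone Canx (calnexin) was higher in the cornea at 6429 and 3638 (-0.73, CI -0.78 to -0.67). The median of these 20 was -0.03, and 0.18 under total reads.

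Cochaperones outside the Hsp and Dnaj names were examined in the same way. Of 25 partners of HSP70 and HSP90, 1 was called higher in the limbus (4%, against 22.8% of all genes), the muscle protein Unc45b described above. In the cornea 4 were called higher (16%, against 20.6%). Chordc1, an HSP90 partner, had 1632 corneal and 596 limbal reads (-1.36, CI -1.50 to -1.22). Ptges3 (p23), which stabilizes the closed form of HSP90, had 2746 and 1297 (-0.99, CI -1.08 to -0.89). The HSP70 regulators Bag4 and Bag2 were called with ratios of -0.79 and -0.61. Bag3, the partner of Hspb8, had 2327 and 2000 reads (-0.12, CI -0.21 to -0.04), a sign that turned under total reads, beside the 13 and 1382 of Hspb8. The median over the 25 was -0.05, and 0.15 under total reads.

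The cytosolic chaperonin TRiC, which folds actin and tubulin, leaned towards the cornea in all 9 of its genes with the size factors and in 8 of 9 under total reads. Its median log2 ratio was -0.33. Cct6a was called higher in the cornea at 2907 and 1533 reads (-0.83, CI -0.92 to -0.74), as was Cct6b, a form best known from testis, at 28 and 8 reads (-1.71, CI -3.06 to -0.54).

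**Figure D5:**
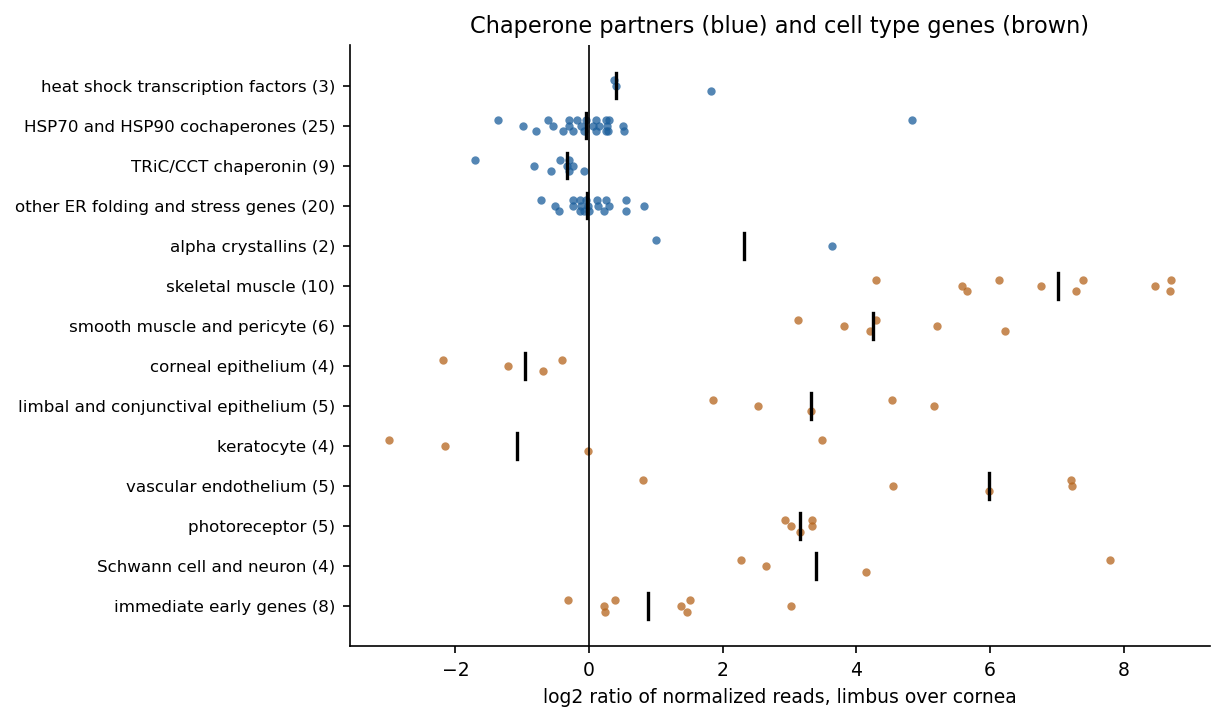
Log2 ratio of normalized reads, limbus over cornea, of genes that work with the chaperones (blue) and of genes used as markers of cell types or of early response (brown), each with a mean of at least 10; points are genes, black bars are medians, and the number of genes is in brackets. The chaperone partners other than the alpha crystallins have medians between -0.33 and 0.40, while skeletal muscle genes have a median of 7.02.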

How the data were processed

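Limbal rims and corneal buttons of mice were pooled by tissue, and their RNA was sequenced. Libraries were made with the QIAseq Stranded Total RNA kit from 100 ng RNA and sequenced with paired 75-base reads. Adaptors were trimmed and reads mapped in CLC Genomics Workbench 20 against GRCm38 (mm10), and the methods name the trimmed mean of M-values, whereas whether counting used strand is not given in the sources used here. The authors deposited 1 table of the comparison, which holds for each gene a mean normalized signal over both libraries, and a log2 fold change (cornea against limbus), a standard error and p-values. No value of that comparison is printed here. The table has no column per sample (0 unmatched), and the 8 sample labels, 4 per tissue, have no values of their own. Every mean above 0 could be written as whole reads of 1 cornea and 1 limbus library, so each tissue was treated as 1 library, although what the labels L001 to L004 stand for is not stated. Of 40904 rows, 17484 had no gene name and were left out.

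Reads were worked back from the steps of the mean, 109 cornea reads being worth 102 limbus reads. Where several pairs of read numbers gave the same mean, a shrinkage model decided between them, by how near its predictions came to the fold change and error deposited for the gene. All 17442 genes with a mean above 0 were met within 0.001, and for the 71 chaperones among them the next best pair missed by at least 214 times as much. The method was tested on simulated data, where all 8548 genes were recovered exactly and all 200 genes made to change had the right direction. The read numbers are therefore derived values. The size factors were 1.03 for the cornea and 0.967 for the limbus.

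Intervals come from the exact Clopper-Pearson method on the share of limbal reads, with libraries of 3 reads or fewer raised to 3. The design was written for no test if 1 library per tissue was found, so none was made. Values in both libraries are given for genes called in either direction, the 12 with the highest mean, all HSP90, HSP70, small heat shock and chaperonin genes with a mean of at least 10, and those next to the fold limit. Dnajb11, Dnajc3, Dnajc12, Dnajc30, Hspbp1 and the genes with a mean under 10 were added after their values were seen. The genes and lists were chosen with earlier results of these data known. Gene symbols were used because the accession column names another gene than the symbol (2 matches of 18556). Positions are from GENCODE vM21 on GRCm38, and exons of 25 of the 65 chaperones overlap another gene. Alternatives were other scalings, filters, folds and pseudocounts. Python 3.11.15, numpy 2.4.6, pandas 2.3.3, scipy 1.17.1 and matplotlib 3.10.9 were used.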

Additional observations from a re-analysis of the deposited data

How the results depend on the processing

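No paired analysis was possible because the table holds 1 library per tissue, and for the same reason no replicate could be left out. The number of chaperones called higher in the limbus was 8 and stayed between 6 and 10 under both other scalings, the other filters and folds and with Hspa1a and Hspa1b summed. It was 5 when the 25 genes whose exons overlap another gene were left out, an alternative chosen after seeing the data. The number called higher in the cornea, 13, was 6 under scaling to total reads, 3 with a fold of at least 2, 41 with any fold and 8 without the overlapping genes, the last because fewer genes were counted. A fold of at least 2 was met on the limbus side by 17.7% of all genes and on the cornea side by 8.75%. With a mean of at least 50, 9.68% of the chaperones and 17.4% of all genes were called higher in the limbus. In the cornea these shares were 21% and 22.1%. The share of all genes was not computed with any fold or without the overlapping genes, so those counts have no such comparison. For the chaperones, the median log2 ratio moved from -0.31 to -0.10 under total reads, and ranged from -0.33 to -0.22 under the other alternatives. Scaling to total reads moved the medians of the cochaperones to 0.15, of TRiC to -0.13, of the other ER genes to 0.18 and of the alpha crystallins to 2.52, since it adds the same amount to every ratio. The sign of 7 of 65 chaperones turned under total reads, none of them called, and none turned under the trimmed mean of M-values or a pseudocount of 1. Depth limits the genes with few reads: the interval of Hspb7 starts at a fold of 2.72 and that of Hspa1l includes a ratio of 1. Pooling leaves the spread between animals unknown.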
